A study of Bos taurus with 12 samples.

Results

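ATF4 and 9 of the genes tied to it (ATF5, DDIT3, DDIT4, ASNS, TRIB3, CHAC1, PHGDH, PSAT1 and PSPH) were followed in the liver of newborn Holstein heifer calves, 10 genes of the 21227 that had a read in any library. They were picked as the transcription factors and target genes of the amino acid stress response together with the enzymes of serine synthesis, by a rule that used no measured value, although earlier results of these data were known. All 10 were found in the count files, and 9 of them passed the filter on low counts that left 13212 genes to be tested. CHAC1 did not pass it and is given with its counts.

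When a cell lacks amino acids or its endoplasmic reticulum is overloaded with unfolded protein, kinases phosphorylate the translation factor eIF2, most protein synthesis slows, and the mRNA of ATF4 is translated more. ATF4 then switches on genes that supply amino acids, such as asparagine synthetase and the serine synthesis enzymes, and also genes that limit the response or take part in cell death, such as TRIB3, CHAC1 and DDIT3. Because ATF4 is controlled mainly at translation, its mRNA is not a measure of its protein. In liver, serine is made from a glycolytic intermediate and gives its carbon to the folate cycle, where it meets the methionine cycle.

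The calves came from Holstein cows that received a close-up diet without added Met (CON, with 15.3% crude protein and an energy content of 1.47 Mcal/kg) or the same diet with ethyl cellulose rumen-protected Met (MET, a coated bead that passes the rumen) for the last 28 d before calving. All calves were fed and managed alike after birth, and liver was taken by puncture at 4 d of age from 6 calves per diet. Values are counts relative to the sum of a library (CPM), after TMM normalization, which scales libraries so that most genes have like levels. The libraries held between 8277789 and 10397604 counted reads, so that the floor of 3 reads was 0.289 to 0.362 CPM.

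Libraries stood apart in a way that the labels do not give. CON replicates 1 and 4 differed by a chi-square of 1.33 per gene and MET replicates 1 and 3 by 1.24, little more than counting noise, whereas the other 64 pairs of libraries differed by 24.7 to 130. MET replicates 4 and 5 differed most from the rest, by 46.9 to 79.7 and by 50.2 to 130, against 24.7 to 53.8 among the other libraries. Each of these near-identical pairs was counted as 1 sample, leaving 5 CON and 5 MET samples, and tests were run over the 12 libraries, as in the methods of the study, and over the 10 samples with the reads of a pair summed. The first index sequence of the libraries was the same within a diet and differed between the diets, and the part of the index cannot be told apart from that of the diet. The hepatocyte markers summed to 136000 to 184000 CPM in CON and 111000 to 145000 CPM in MET samples. ALB alone had means of 62100 CPM in CON and 39400 CPM in MET. The defining muscle genes ACTA1, MYH2 and CKM were at 0 in all libraries. In such bulk tissue, fewer cells of a type and less RNA per cell cannot be told apart.

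The clearest difference between the diets within this group was in DDIT3, which encodes CHOP, a transcription factor induced downstream of ATF4. It rose in MET calves over the 12 libraries, with all 5 MET samples above all 5 CON samples. By edgeR's quasi-likelihood test the call ended over the 10 samples, with a correction for gene length and without CON replicate 1. DESeq2 called DDIT3 over the 12 libraries and over the 10 samples. The serine synthesis enzyme PSAT1 and the mTORC1 inhibitor DDIT4 had lower means in MET and asparagine synthetase a higher one, but none of the 3 passed edgeR's quasi-likelihood test at an FDR of 0.10, while DESeq2 called PSAT1 and DDIT4. ATF4 itself was higher in 4 of the 5 MET samples than in any CON sample and lower in the other one.

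Across all genes, edgeR's quasi-likelihood test called 583 of 13212 at an FDR of at most 0.10 over the 12 libraries, which is 4.41% (276 higher and 307 lower in MET). With library size as the only scaling, the calls were 71 higher and 36 lower. Of the 9 tested genes of the ATF4 group 1 was called, DDIT3. Over the 10 samples no gene of the 13212 was called by the same test, where the lowest FDR was 0.155. At an unadjusted p of at most 0.05, the 10 samples gave 2162 genes, or 16.4%, and 4 of the 9, namely DDIT3 and ASNS higher and DDIT4 and PSAT1 lower. The same 4 reached an unadjusted p of at most 0.05 in the 12 libraries by edgeR's test, as did 20.5% of all genes. With DESeq2, 3 of the 9 were called, DDIT3, DDIT4 and PSAT1, both over the 12 libraries, where it called 9.95% of genes, and over the 10 samples, where it called 4.72%. Values without MET replicates 4 and 5, the libraries farthest from the rest, were computed over the remaining 8 samples, an alternative chosen after seeing the data. There no gene was called by edgeR's quasi-likelihood test, while 1738 reached an unadjusted p of 0.05, among them DDIT3, DDIT4 and PSAT1 of the 9. The log2 fold changes over these 8 samples were 0.57 for DDIT3 and 0.30 for ATF4. Those of PSAT1 (-0.51 against -0.82) and DDIT4 (-0.60 against -0.695) were closer to 0 than over the 10 samples. So were those of ASNS (0.18), PHGDH (-0.03) and ATF5 (-0.06), while TRIB3 had 0.39 and PSPH 0.13.

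The median log2 fold change over the 10 samples was -0.02 for the 9 genes and 0.00 for all genes tested. Of the 9 genes, 4 were above and 5 below 0.

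**Figure D1:**
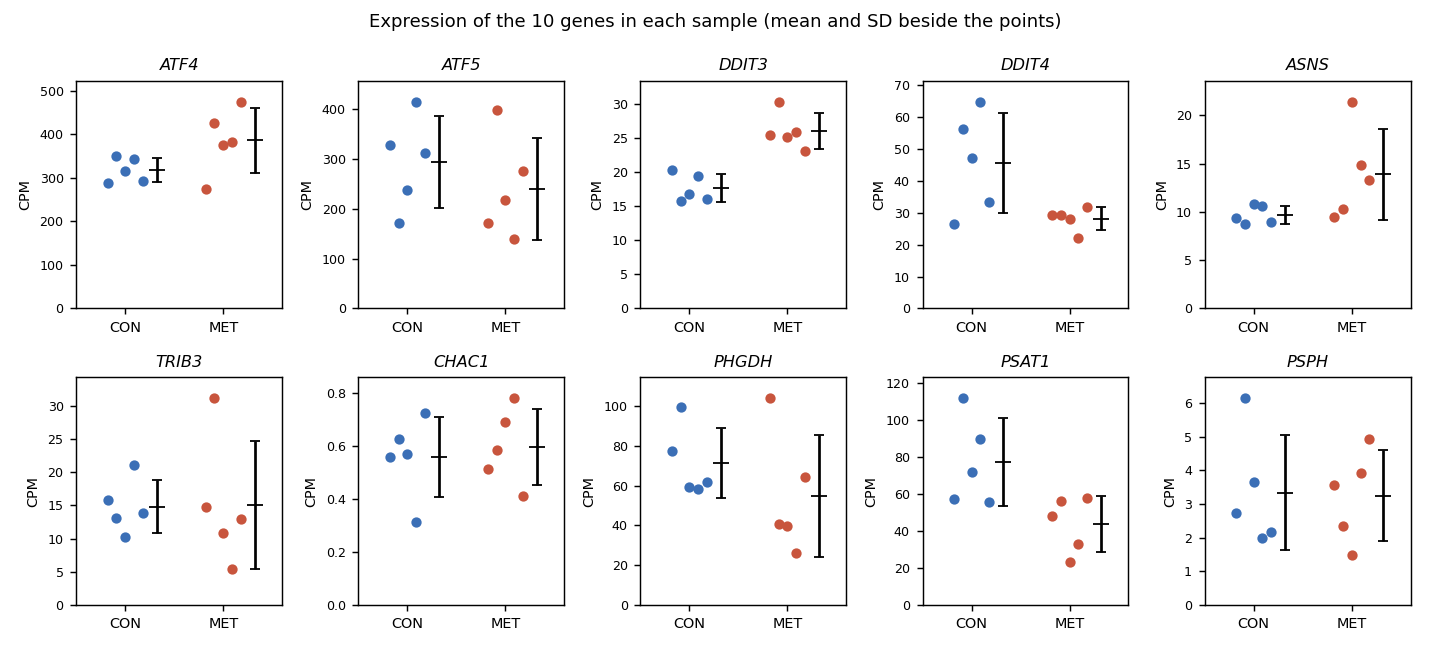
CPM of the 10 genes in each of the 5 CON and 5 MET samples (points; near-identical library pairs averaged), with the mean and SD beside them; each vertical axis starts at 0. DDIT3 is the only panel in which the diets do not overlap, and the widest MET spreads relative to the mean are those of TRIB3 and PHGDH.

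ATF4 (gene ID 509107, UMD 3.1.1 chr5:111462845-111464940, plus strand, 3 exons) is the transcription factor at the head of the response. It was read at 289, 351, 316, 343 and 292 CPM in the CON samples and at 274, 427, 375, 383 and 475 CPM in the MET samples. Here and in every list of values that follows, the first CON value is that of replicates 1 and 4, followed by replicates 2, 3, 5 and 6, and the first MET value is that of replicates 1 and 3, followed by replicates 2, 4, 5 and 6. The CON samples lay close together, 4 MET samples were above all of them, and the near-identical MET pair was below all of them. The means were 318 ± 28.6 (SD, n = 5) and 387 ± 74.8 CPM (SD, n = 5). The log2 fold change was 0.23 ± 0.14 (SE) with an FDR of 0.385 for the 12 libraries and 0.28 ± 0.15 with an FDR of 0.386 over the 10 samples (edgeR quasi-likelihood test), so that the difference did not pass the test. Without MET replicate 6 the log2 fold change was 0.14 over the remaining libraries, and with the length trend of all genes removed, as described for DDIT3, it was 0.14 over the 12 libraries and 0.18 over the 10 samples.

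ATF5 (gene ID 515654, chr18:56725592-56729591, plus strand, 3 exons) is a related transcription factor that is also translated under stress and, besides, acts in the response to unfolded protein in mitochondria. Its levels were 328, 172, 237, 414 and 311 CPM in CON and 171, 398, 217, 139 and 275 CPM in MET. The diets overlapped over most of their range, MET replicate 2 stood next to the highest CON sample, and MET replicate 5 was the lowest of all. The means were 292 ± 92.0 and 240 ± 102 CPM (SD, n = 5 each), with a log2 fold change of -0.38 ± 0.26 (SE, FDR 0.422) over the 12 libraries and -0.28 ± 0.29 (FDR 0.666) over the 10 samples by edgeR's quasi-likelihood test. Without MET replicate 2 it was -0.62 over the remaining libraries. ATF5 overlaps NUP62 on the opposite strand. The counting used strand, and NUP62 had 61.4 ± 27.2 CPM in CON and 50.1 ± 22.9 in MET samples (log2 fold change -0.30 ± 0.32 over the 10 samples).

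ATF4 and ATF5 did not follow the same order over the calves. ATF4 per ATF5, each per kilobase of exon, was between 0.703 and 1.73 in CON and between 0.907 and 2.33 in MET. The mean log2 ratio was higher by 0.58 in MET than in CON, and an exact two-sided permutation test over the 252 arrangements of the 10 samples gave a p of 0.103.

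DDIT3 (gene ID 777788, chr5:56285008-56289215, plus strand, 4 exons) was read 126 to 311 times per library. The CON samples had 20.3, 15.8, 16.8, 19.4 and 16.1 CPM and the MET samples 25.4, 30.3, 25.2, 25.9 and 23.1 CPM. The highest CON sample was below the lowest MET sample, and both diets were narrow, with a coefficient of variation of 11.5% in CON and 10.2% in MET against a median of 19.0% and 19.6% over all genes tested. Among all genes tested, 489 (3.7%) had diets that did not overlap in the 10 samples.

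The mean of DDIT3 was 17.7 ± 2.03 CPM in CON and 26.0 ± 2.66 CPM in MET (SD, n = 5 each). The log2 fold change was 0.52 ± 0.10 (SE) over the 12 libraries, with an FDR of 0.0452, and 0.55 ± 0.11 over the 10 samples, with an unadjusted p of 0.000412 and an FDR of 0.155 by edgeR's quasi-likelihood test. By that p, DDIT3 ranked 33 among the 13212 genes over the 10 samples and 46 over the 12 libraries. DESeq2 gave an FDR of 0.00112 for the 12 libraries and of 0.0078 for the 10 samples.

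DDIT3 is a short transcript, with 883 bases of exon against a median of 2807 over the genes tested, and over the 12 libraries the log2 fold changes of all genes fell with log2 length across genes (r = -0.264, genes not being independent replicates). After a smooth trend on length was removed from each library, the log2 fold change of DDIT3 was 0.36 with an FDR of 0.158 for the 12 libraries and 0.39 with an FDR of 0.262 over the 10 samples (edgeR quasi-likelihood test), so that its call ended. Without CON replicate 1 its FDR was 0.104 over the remaining libraries, with a log2 fold change of 0.53. DDIT3 overlaps MARS1, a tRNA synthetase gene for methionine, on the opposite strand. MARS1 had 35.5 ± 6.28 CPM in CON and 44.8 ± 11.2 CPM in MET samples, with a log2 fold change of 0.32 ± 0.20 (FDR 0.384) over the 12 libraries, and its diets overlapped.

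ATF4 was read at 8.88 to 13.8 times the level of DDIT3 per kilobase in CON and at 6.72 to 12.9 times in MET. The mean log2 ratio was -0.30 in MET relative to CON, with an exact permutation p of 0.127 over 252 arrangements of the 10 samples.

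**Figure D2:**
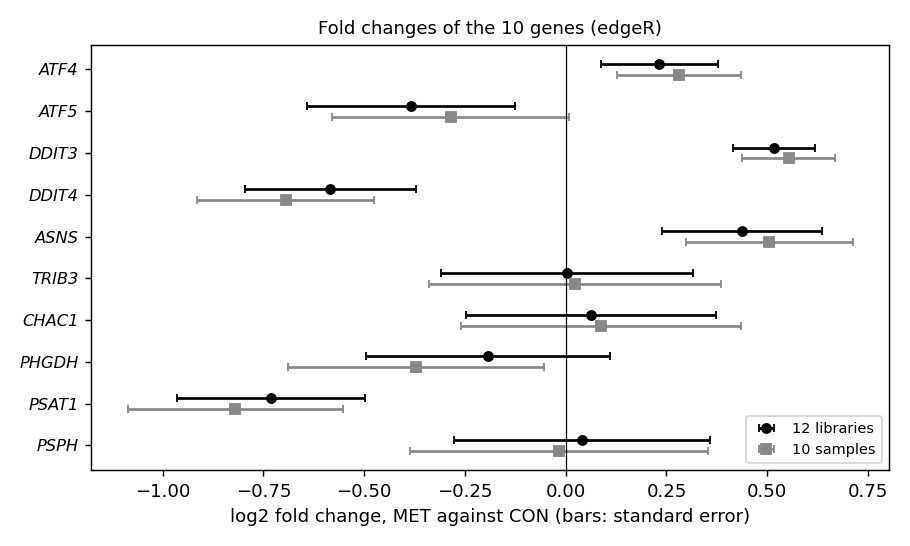
Log2 fold change of MET against CON for the 10 genes, with standard errors, over the 12 libraries (circles) and over the 10 samples (squares), from edgeR; CHAC1 is from the fit with the filter on CPM. DDIT3 and ASNS lie to the right of 0 by more than 2 standard errors and DDIT4 and PSAT1 to the left, while TRIB3, CHAC1 and PSPH lie within 1 standard error of 0.

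ASNS, asparagine synthetase (gene ID 514209, chr4:15035753-15183476, minus strand, 17 exons), makes asparagine from aspartate and glutamine and is a classical ATF4 target. The CON samples held 9.4, 8.79, 10.8, 10.6 and 8.91 CPM and the MET samples 9.47, 10.3, 21.4, 14.9 and 13.3 CPM. The CON values stayed within 1.23-fold of each other, 3 MET samples were above all of them, and the MET pair of replicates 1 and 3 and MET replicate 2 lay inside the CON range. The means were 9.71 ± 0.961 and 13.9 ± 4.73 CPM (SD, n = 5 each). The log2 fold change of 0.44 ± 0.20 (SE) over the 12 libraries had an FDR of 0.23, and that of 0.50 ± 0.21 over the 10 samples had an unadjusted p of 0.0313 and an FDR of 0.267 by edgeR's quasi-likelihood test. Without MET replicate 4 the log2 fold change was 0.25 over the remaining libraries.

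The MET samples with most ASNS were not those with most DDIT3. ASNS was highest in MET replicate 4 and DDIT3 in MET replicate 2. ATF4 was highest in MET replicate 6.

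TRIB3 (gene ID 538465, chr13:61176213-61188197, minus strand, 6 exons) encodes a pseudokinase that is induced by ATF4 and CHOP and holds ATF4 back. Its levels were 15.8, 13.1, 10.2, 21.1 and 13.9 CPM in CON and 14.7, 31.2, 10.9, 5.47 and 13 CPM in MET. MET replicate 2 was above and MET replicate 5 below every CON sample, a range of 5.70-fold within MET against 2.08-fold within CON. The means were 14.8 ± 4.08 and 15.0 ± 9.66 CPM (SD, n = 5 each), and the log2 fold change was 0.00 ± 0.31 (SE, FDR 0.997) over the 12 libraries and 0.02 ± 0.36 (FDR 0.984) over the 10 samples by edgeR's quasi-likelihood test. The direction of TRIB3 turned under several alternatives given with the limits.

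CHAC1, which degrades glutathione and is among the targets most readily induced by ATF4, was at the limit of these libraries (gene ID 505991, chr10:36598394-36600765, plus strand, 3 exons). It had 3 to 7 reads per library, or 0.312 to 0.725 CPM in CON and 0.412 to 0.782 CPM in MET samples, close to the floor of 3 reads. The means of 0.559 ± 0.153 and 0.596 ± 0.145 CPM (SD, n = 5 each) overlapped. In the fit of edgeR's quasi-likelihood test with a filter on CPM, the log2 fold change was 0.06 ± 0.31 (SE) with an FDR of 0.951 over the 12 libraries, and a difference was not detectable at this depth.

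DDIT4, or REDD1 (gene ID 529235, chr28:28483403-28485434, plus strand, 3 exons), inhibits mTORC1 and responds to several stresses and to glucocorticoids as well as to ATF4. It was read at 26.5, 56.2, 47.3, 64.9 and 33.4 CPM in CON and at 29.2, 29.3, 28.2, 22.2 and 31.8 CPM in MET. All MET samples were below the CON mean and close together, whereas the CON samples spread 2.45-fold and the CON pair of replicates 1 and 4 lay among the MET samples. The means were 45.7 ± 15.8 and 28.1 ± 3.56 CPM (SD, n = 5 each). The log2 fold change was -0.58 ± 0.21 (SE, FDR 0.148) over the 12 libraries and -0.69 ± 0.22 (unadjusted p 0.00816, FDR 0.189) over the 10 samples by edgeR's quasi-likelihood test, and DESeq2 called it with an FDR of 0.0955 and 0.0821.

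The serine synthesis pathway runs from 3-phosphoglycerate through PHGDH, the dehydrogenase of the first step, PSAT1, the aminotransferase, and PSPH, the phosphatase that releases serine. PHGDH (gene ID 505103, chr3:23672339-23703529, minus strand, 12 exons) was read at 77.2, 99.6, 59.5, 58.5 and 62.0 CPM in CON and at 104, 40.6, 39.9, 26.0 and 64.2 CPM in MET. The MET pair of replicates 1 and 3 was above all CON samples and 3 MET samples were below all of them, so that MET spread 4.01-fold against 1.70-fold in CON. The means were 71.4 ± 17.5 and 55.0 ± 30.8 CPM (SD, n = 5 each). The log2 fold change was -0.19 ± 0.30 (SE, FDR 0.76) over the 12 libraries, in which the MET pair counts as 2 libraries, and -0.37 ± 0.32 (FDR 0.59) over the 10 samples by edgeR's quasi-likelihood test. Over the remaining libraries it was -0.08 without CON replicate 2, -0.09 without MET replicate 2 or 4, -0.03 without MET replicate 5, and -0.40 and -0.39 without MET replicate 1 or 3.

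PSAT1 (gene ID 533044, chr8:54501518-54529788, plus strand, 9 exons) showed the lowest fold change of the 10 genes. The CON samples had 57.3, 112, 72.1, 89.6 and 55.9 CPM and the MET samples 48.3, 56.5, 23.3, 32.8 and 57.9 CPM. All MET samples were below the CON mean and 3 were below every CON sample, while MET replicates 2 and 6 overlapped the lowest CON samples. The means were 77.4 ± 23.7 and 43.8 ± 15.2 CPM (SD, n = 5 each), a fold of 0.567 over the 10 samples. The log2 fold change was -0.73 ± 0.23 (SE, FDR 0.113) over the 12 libraries and -0.82 ± 0.27 (unadjusted p 0.00956, FDR 0.195) over the 10 samples by edgeR's quasi-likelihood test. DESeq2 called PSAT1 with an FDR of 0.0467 for the 12 libraries and of 0.0774 for the 10 samples.

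PSPH (gene ID 533630, chr25:27955041-27985607, minus strand, 12 exons) had only 13 to 49 reads per library. Its levels were 2.74, 6.15, 3.65, 1.98 and 2.18 CPM in CON and 3.56, 2.34, 1.49, 3.91 and 4.94 CPM in MET. The diets overlapped fully but for MET replicate 4, which was lowest, and the highest sample was CON replicate 2. The means were 3.34 ± 1.70 and 3.25 ± 1.35 CPM (SD, n = 5 each), and the log2 fold change was 0.04 ± 0.32 (SE, FDR 0.961) over the 12 libraries and -0.02 ± 0.37 (FDR 0.99) over the 10 samples by edgeR's quasi-likelihood test.

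Within the pathway, CON replicate 2 had the most PHGDH, PSAT1 and PSPH of the CON samples. MET replicate 4 had the least PSAT1 and PSPH of the MET samples, and MET replicate 5 the least PHGDH. Per kilobase, PHGDH relative to PSAT1 was 0.797 to 1.65 in CON and 0.878 to 2.64 in MET, and the mean log2 ratio was higher by 0.34 in MET with an exact permutation p of 0.389.

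Compared per kilobase of exon (RPKM), the 10 genes covered several steps of level. The transcription factors ATF4 and ATF5 were highest, at 249 ± 45.5 and 222 ± 79.8 RPKM (SD, n = 10), and their samples overlapped, with ATF4 above ATF5 in 6 of 10. PHGDH (34.3 ± 13.7), PSAT1 (27.0 ± 11.5), DDIT3 (24.7 ± 5.57) and DDIT4 (22.5 ± 8.69 RPKM) followed without overlap with ATF5, and each of them overlapped its neighbour in this order. By diet, DDIT3 had 20 ± 2.30 RPKM in CON and 29.4 ± 3.01 in MET, and PSAT1 34.5 ± 10.6 in CON and 19.5 ± 6.75 in MET, so that PSAT1 stood above DDIT3 by its mean in CON and below it in MET.

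TRIB3 (5.18 ± 2.43 RPKM) and ASNS (4.89 ± 1.62 RPKM) formed the next step and overlapped each other but not DDIT4. PSPH was at 1.44 ± 0.632 RPKM, below every ASNS value, and CHAC1 at 0.385 ± 0.0945 RPKM, below every PSPH value. Of the 3 serine synthesis mRNAs, that of the last enzyme was thus the least abundant in all 10 samples.

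**Figure D3:**
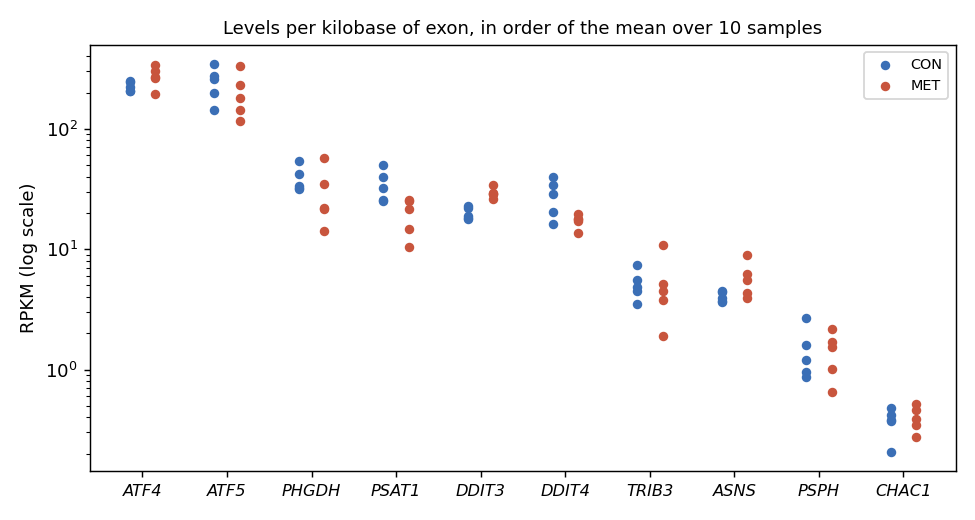
Level of each of the 10 genes per kilobase of exon (RPKM, log axis) in the 5 CON and 5 MET samples, ordered by the mean over the 10 samples. Neighbouring genes overlap except between ATF5 and PHGDH, DDIT4 and TRIB3, ASNS and PSPH, and PSPH and CHAC1.

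Upstream of ATF4 stand the eIF2 kinases, eIF2 itself, its exchange factor eIF2B, which phosphorylated eIF2 inhibits, and the phosphatase that reverses the phosphorylation. All 21 genes of this list were tested. Over the 12 libraries 1 rose and 1 fell at an FDR of at most 0.10, against 4.41% of all genes. Over the 10 samples 4 were higher and 3 lower at an unadjusted p of at most 0.05, against 16.4% of all genes, 5 of the 21 had diets that did not overlap, against 3.7%, and the median log2 fold change was 0.07.

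The 4 higher genes were all eIF2B subunits. EIF2B4, the delta subunit, rose from 30.6 ± 2.25 CPM in CON to 41.1 ± 5.15 CPM in MET (SD, n = 5 each), with a log2 fold change of 0.37 ± 0.11 (SE, FDR 0.0895) over the 12 libraries and 0.42 ± 0.11 (unadjusted p 0.003, FDR 0.175) over the 10 samples by edgeR's quasi-likelihood test. The CON samples had 30.5, 31.5, 26.8, 31.9 and 32.4 CPM and the MET samples 32.7, 44.0, 42.1, 40.7 and 46.1 CPM, the MET pair of replicates 1 and 3 being just above the highest CON sample. The other subunits are described because of their values in these samples. EIF2B2 had 13.1 ± 1.94 and 16.4 ± 1.25 CPM, EIF2B3 10.3 ± 1.26 and 12.9 ± 1.03 CPM, and EIF2B5, the catalytic subunit, 41.2 ± 3.62 and 49.5 ± 5.88 CPM in CON and MET, and the diets did not overlap for EIF2B2 and EIF2B3. Their log2 fold changes over the 10 samples were 0.32, 0.32 and 0.26, and their FDR over the 12 libraries were 0.121, 0.159 and 0.148 by edgeR's quasi-likelihood test. EIF2B1 had a log2 fold change of 0.28 with an FDR of 0.306 over the 12 libraries by the same test. With the length trend removed, the log2 fold changes over the 10 samples were 0.22, 0.24, 0.24, 0.39 and 0.24 for EIF2B1 to EIF2B5, with an unadjusted p of at most 0.05 for EIF2B4 and EIF2B5 alone, and EIF2B4 was no longer called over the 12 libraries (FDR 0.126 by the same test).

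On the side of the phosphatase, PPP1CC, a catalytic subunit of protein phosphatase 1, fell from 34.6 ± 3.24 to 27.2 ± 1.23 CPM (SD, n = 5 each), with a log2 fold change of -0.31 ± 0.09 (SE, FDR 0.0933) over the 12 libraries and -0.35 ± 0.10 (FDR 0.177) over the 10 samples by edgeR's quasi-likelihood test. PPP1CB, another catalytic subunit, had 82.5 ± 8.09 CPM in CON and 64.4 ± 9.53 CPM in MET, with a log2 fold change of -0.36 and an unadjusted p of 0.0168 over the 10 samples and an FDR of 0.135 over the 12 libraries. Neither overlapped between the diets. The length trend left both log2 fold changes over the 10 samples at -0.35 for PPP1CC and -0.36 for PPP1CB, but PPP1CC was no longer called over the 12 libraries (FDR 0.11 by the same test). PPP1CA, the remaining catalytic subunit, had a higher mean in MET, with 59.6 ± 9.97 CPM in CON and 65.2 ± 10.8 CPM in MET. Its log2 fold change was 0.13 over the 10 samples, with an unadjusted p of 0.388 by the same test. These catalytic subunits serve many other substrates as well.

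The subunits that direct the phosphatase to eIF2 gave other values. PPP1R15A, itself a target of ATF4 and CHOP, had 11.3 ± 1.48 CPM in CON and 10.8 ± 2.98 CPM in MET, and PPP1R15B 128 ± 11.5 and 122 ± 15.5 CPM (SD, n = 5 each), with log2 fold changes of -0.06 and -0.07 over the 10 samples. For the kinases, the log2 fold changes over the 10 samples were 0.07 for EIF2AK1, -0.31 for EIF2AK2, 0.12 for EIF2AK3 and -0.12 for EIF2AK4, the sensor of uncharged tRNA, with an FDR of 0.473 to 0.838 over the 12 libraries by edgeR's quasi-likelihood test. IMPACT, an inhibitor of EIF2AK4, was the third lower gene, with 22.7 ± 2.64 and 18.9 ± 2.11 CPM and an unadjusted p of 0.0492 over the 10 samples, which was 0.0726 with the length trend removed (edgeR quasi-likelihood test). DNAJC3, an inhibitor of the kinase EIF2AK3, had the highest log2 fold change of the list over the 12 libraries, 0.44 ± 0.24 (SE), with an FDR of 0.325.

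**Figure D4:**
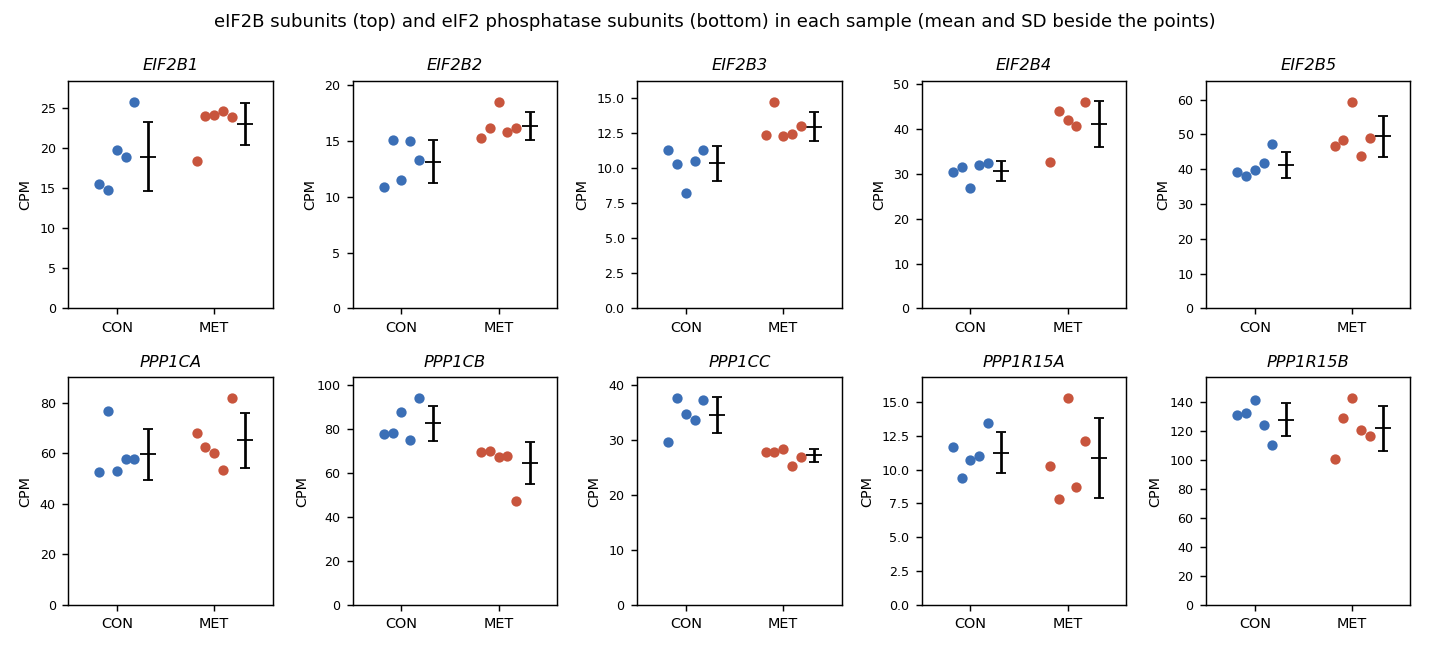
CPM of the 5 eIF2B subunits and of the catalytic (PPP1CA, PPP1CB, PPP1CC) and directing (PPP1R15A, PPP1R15B) subunits of the eIF2 phosphatase in the 5 CON and 5 MET samples, with mean and SD; each vertical axis starts at 0. The diets do not overlap for EIF2B2, EIF2B3 and EIF2B4, higher in MET, or for PPP1CB and PPP1CC, lower in MET.

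Of 29 other genes known as ATF4 targets, 24 were tested and none was called over the 12 libraries by edgeR's quasi-likelihood test, against 4.41% of all genes. At an unadjusted p of at most 0.05 in the 10 samples, EIF4EBP1, a translation repressor, and SLC3A2, the heavy chain of several amino acid transporters, were higher, and KLHL24 was lower, which is 3 of 24 against 16.4% of all genes. With the length trend removed, SLC3A2 kept such a p (0.0283), whereas EIF4EBP1 (0.167) and KLHL24 (0.106 by edgeR's quasi-likelihood test) did not. JDP2 reached such a p only then, with 0.0456 against 0.0615 before by the same test and a log2 fold change of -0.50. The median log2 fold change of the list was 0.10 over the 10 samples and the diets overlapped for every tested gene of it, while 3.7% of all genes did not overlap. SLC3A2 had 27.0 ± 4.31 CPM in CON and 33.9 ± 3.48 CPM in MET, and EIF4EBP1 43.4 ± 8.83 and 56.3 ± 10.3 CPM (SD, n = 5 each). The highest log2 fold change over the 12 libraries was that of PCK2, the mitochondrial phosphoenolpyruvate carboxykinase, at 0.43 ± 0.16 (SE, FDR 0.155), and the lowest that of KLHL24 at -0.44 ± 0.15 (FDR 0.135).

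ATF3, a transcription factor that usually rises with ATF4, had 6.76 ± 1.1 CPM in CON and 7.28 ± 2.05 CPM in MET, and SESN2, a leucine sensor, 7.68 ± 2.57 and 7.80 ± 1.0 CPM (SD, n = 5 each). The hormone genes FGF21 and GDF15 did not pass the filter, with 0 to 37 and 3 to 13 reads per library, and STC2 and SLC7A11 had at most 1 read in any library.

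Among 9 tested partners and targets of CHOP none was called over the 12 libraries, against 4.41% of all genes, or had an unadjusted p of at most 0.05 in the 10 samples, against 16.4%, and their median log2 fold change was 0.05. The log2 fold changes over the 12 libraries ran from -0.16 for BCL2L11, a cell death gene, to 0.39 for TRIB1 (FDR 0.502 and 0.227 by edgeR's quasi-likelihood test). Among 11 genes of endoplasmic reticulum stress none was called by the same test, against 4.41% of all genes, 3 were higher at an unadjusted p of at most 0.05 in the 10 samples, against 16.4% of all genes, and the median log2 fold change was 0.52. These 3 were HSP90B1, a chaperone, with 1050 ± 522 and 1680 ± 414 CPM, SDF2L1, with 40.3 ± 32.7 and 91.1 ± 41.2 CPM, and XBP1, a transcription factor of the unfolded protein response, with 327 ± 60.4 and 468 ± 160 CPM in CON and MET (SD, n = 5 each). With the length trend removed, the log2 fold changes over the 10 samples were 0.68, 0.96 and 0.46 for HSP90B1, SDF2L1 and XBP1 against 0.68, 1.18 and 0.52 before, with an unadjusted p of 0.0483, 0.0792 and 0.0652 by edgeR's quasi-likelihood test. Without MET replicates 4 and 5 they were 0.49, 1.24 and 0.16, with an unadjusted p of 0.197, 0.064 and 0.422 by the same test. HSPA5, another chaperone of that list, had a log2 fold change of 0.61 over the 10 samples, with an unadjusted p of 0.161. SDF2L1 had the highest log2 fold change of that list over the 12 libraries, 1.15 ± 0.49 (SE, FDR 0.208), and EDEM1 the lowest, -0.51 ± 0.24 (FDR 0.256).

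The genes that use serine and glycine showed no common direction. Of 21 tested, 2 rose and none fell over the 12 libraries, against 4.41% of all genes called. Over the 10 samples 2 were higher and 2 lower at an unadjusted p of at most 0.05, against 16.4% of all genes, with a median log2 fold change of 0.01. PTDSS2, which makes phosphatidylserine, rose from 8.92 ± 1.43 to 12.7 ± 1.75 CPM (SD, n = 5 each), with a log2 fold change of 0.49 ± 0.13 (SE, FDR 0.0781) over the 12 libraries and 0.51 ± 0.15 (FDR 0.18) over the 10 samples by edgeR's quasi-likelihood test. GLYAT, which conjugates glycine to acyl groups, rose from 151 ± 85.1 to 504 ± 304 CPM, with a log2 fold change of 1.73 ± 0.48 (FDR 0.0865) over the 12 libraries and 1.74 ± 0.57 (FDR 0.197) over the 10 samples, although MET replicate 4 was at 62.2 CPM, inside the CON range. GLDC, the decarboxylase of the glycine cleavage system, had 214 ± 31.7 and 133 ± 54.9 CPM, the lowest log2 fold change of the list (-0.57 ± 0.23, FDR 0.182). Over the 10 samples it was -0.69, and -0.35 without MET replicates 4 and 5. The hydroxymethyltransferases that turn serine into glycine had 430 ± 90.9 and 373 ± 78.7 CPM for SHMT1 and 61.3 ± 13.3 and 50 ± 12 CPM for SHMT2, neither of which passed the test.

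In the list of 12 genes around asparagine, aspartate and the glutathione cycle, 1 rose and 1 fell over the 12 libraries, against 4.41% of all genes called. The same pair of genes, GOT1 and GCLM, were those with an unadjusted p of at most 0.05 in the 10 samples, against 16.4% of all genes. GOT1, the cytosolic aspartate aminotransferase, rose from 67.9 ± 21.2 CPM in CON to 123 ± 25.8 CPM in MET (SD, n = 5 each), with a log2 fold change of 0.99 ± 0.23 (SE, FDR 0.0674 by edgeR's quasi-likelihood test) over the 12 libraries and 0.86 ± 0.23 (FDR 0.175) over the 10 samples. GCLM, the regulatory subunit of the first enzyme of glutathione synthesis, fell from 49.0 ± 6.22 to 36.8 ± 3.92 CPM, with a log2 fold change of -0.41 ± 0.10 (FDR 0.0719) over the 12 libraries and -0.42 ± 0.12 (FDR 0.177) over the 10 samples by the same test. With the length trend removed, GOT1 stayed called over the 12 libraries (FDR 0.0887 by edgeR's quasi-likelihood test), with a log2 fold change of 0.96. GCLM (-0.32, FDR 0.165), PTDSS2 (0.34, FDR 0.166) and GLYAT (1.6, FDR 0.128 by the same test) did not, although the value of GLYAT stayed close to that before.

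In the mitochondrial unfolded protein response, which ATF5 serves, 1 of 10 genes rose over the 12 libraries, against 4.41% of all genes called. Over the 10 samples 2 were higher (CLPP and HSPE1) and 1 lower (CLPX) at an unadjusted p of at most 0.05, against 16.4%. HSPE1, a mitochondrial chaperonin, had a log2 fold change of 0.37 there, and 0.14 with the length trend removed (unadjusted p 0.365 by edgeR's quasi-likelihood test). CLPP, the protease subunit of the matrix, rose from 25.3 ± 2.98 to 35.8 ± 5.91 CPM (SD, n = 5 each) without overlap of the diets, with a log2 fold change of 0.44 ± 0.12 (SE, FDR 0.0855) over the 12 libraries and 0.50 ± 0.13 (FDR 0.175) over the 10 samples by edgeR's quasi-likelihood test. With the length trend removed it was 0.30 with an FDR of 0.17 over the 12 libraries, by the same test. Its partner CLPX, the unfoldase of the same complex, had 90.4 ± 17.9 and 66.6 ± 11 CPM, a log2 fold change of -0.44 ± 0.14 (FDR 0.116), and was the lowest of that list.

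A list around DDIT4 held genes of mTORC1 control together with the glucocorticoid targets TSC22D3 and FKBP5. Of its 11 tested genes, none was called over the 12 libraries by edgeR's quasi-likelihood test, against 4.41% of all genes. Among the 11, against 16.4% of all genes, only TSC22D3, a glucocorticoid target, had an unadjusted p of at most 0.05 in the 10 samples, with 87.7 ± 7.68 CPM in CON and 68.0 ± 14.9 CPM in MET (SD, n = 5 each). The extremes over the 12 libraries were MLST8, a subunit of mTORC1, at a log2 fold change of 0.28 ± 0.12 (SE, FDR 0.191) and FKBP5, another glucocorticoid target, at -0.72 ± 0.59 (FDR 0.515), with 117 ± 82.0 and 70.5 ± 69.9 CPM.

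**Figure D5:**
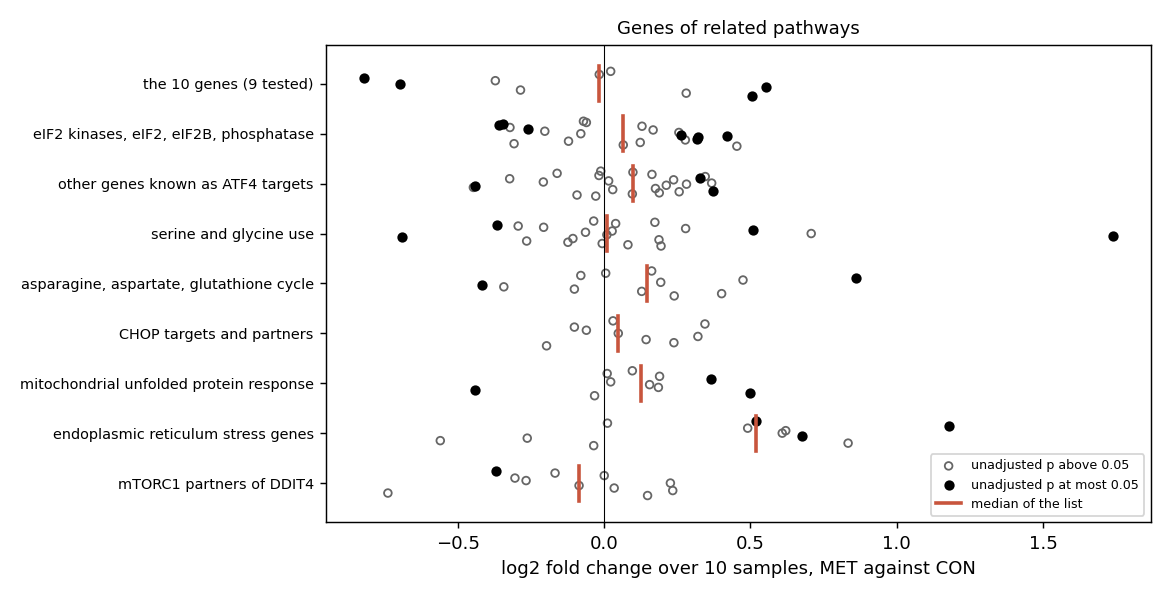
Log2 fold change of MET against CON over the 10 samples for the tested genes of the 9 lists (circles; filled where the unadjusted p of edgeR's quasi-likelihood test was at most 0.05), with the median of each list as a vertical bar. The median of the ATF4 group lies at -0.02 with genes on both sides, and that of the endoplasmic reticulum stress list at 0.52.

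Markers of other cells were read in the same samples, and their counts stand against 4.41% of all genes called over the 12 libraries and 16.4% at an unadjusted p of at most 0.05 in the 10 samples. The hepatocyte list had 1 of 9 genes called over the 12 libraries, APOB lower in MET (log2 fold change -0.38, FDR 0.0859), which was no longer called with the length trend removed (-0.20, FDR 0.373 by edgeR's quasi-likelihood test), and ALB had 62100 ± 13400 CPM in CON and 39400 ± 8750 CPM in MET (SD, n = 5 each), with an unadjusted p of 0.0201 over the 10 samples (edgeR quasi-likelihood test). Macrophage markers summed to 933 to 1330 CPM in CON and 1090 to 1510 CPM in MET, and 1 of 7, CD68, was higher at an unadjusted p of at most 0.05 (log2 fold change 0.34), and with the length trend removed it had 0.23 and a p of 0.0758 by edgeR's test. Bile duct markers summed to 50.7 to 78.0 and 30.5 to 67.7 CPM with 1 gene called lower, stellate markers to 606 to 894 and 449 to 744 CPM, and endothelial markers to 230 to 409 and 217 to 395 CPM. Erythroid markers ranged from 7.63 to 963 CPM in CON and from 57.3 to 460 CPM in MET, lymphocyte markers from 14.5 to 23.9 and from 16.0 to 27.9 CPM, and neutrophil markers from 5.72 to 23.7 and from 6.04 to 68.0 CPM. The part of these shifts in the values of DDIT3, PSAT1 and the other genes was not tested.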

How the data were processed

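By the labels, RNA was sequenced from the liver of 12 calves, 6 per diet, and each library was assigned to its diet and replicate by them. Reads were aligned by the authors, with bovine UMD 3.1.1 as the reference, by STAR 2.5.3a, and the deposited values are raw counts of reads per gene from featureCounts (Subread 1.5.2), by Entrez gene ID, on the exons and by strand, without reads that matched several places or genes. Symbols came from RefSeq's gene table for a newer build, which named 25105 of the 30336 IDs, and chromosomes and positions from the count files.

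From the counts, CPM after TMM and a quasi-likelihood F-test on diet alone were computed with edgeR 4.0.16 in R 4.3.3 (default filter, minimum count 10 and minimum total 15), with Benjamini-Hochberg adjustment over the 13212 genes tested and a threshold of 0.10 on the FDR. RPKM is this CPM per kilobase of exon in the files. The near-identical library pairs were averaged for means and SD and summed for the fit over 10 samples. The labels name separate calves, but p measures only the spread between these samples. The floor of 3 reads reflects counting error alone, as the reads carried no molecular identifiers. Alternatives were RLE, upper-quartile and no scaling factors, DESeq2 1.42.0, limma 3.58.1 (voom), robust estimation, filters, a length correction (span 0.5), replicate blocks and leaving out each library. The edgeR, DESeq2 and voom fits and the length correction were tested on simulated data, in which DESeq2 called more unchanged genes than edgeR did. The members and lists were chosen with earlier results of these data known. From the lists, genes at an FDR of at most 0.10 and each list's extremes were named by rule. Other genes were named after their values were seen. GC content, promoter motifs and sequences were not analysed here. Figures were drawn with matplotlib 3.10.9.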

Additional observations from a re-analysis of the deposited data

How the results depend on the processing

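The log2 fold changes of the ATF4 genes kept their direction in 234 of 254 values under the alternatives, 222 of them on the same side of an FDR of 0.10, and the 20 reversals were all in TRIB3 and PSPH, whose fold changes are near 0. The cause of each change was not tested unless the alternative itself gives it (fewer samples or other genes tested). With edgeR's quasi-likelihood test over the 12 libraries, 583 genes and 1 of the 9 tested ATF4 genes (DDIT3) were called. The number of genes called was 107 with library size only, 1314 with DESeq2, 238 without a filter, 250 with the length correction and 6 with the replicate block. The number was 0 over the 10 samples, with 1 library of each pair, and, in alternatives chosen after seeing the data, over the 10 samples with the length correction or the filter on CPM, or over 8 samples without MET replicates 4 and 5. At an unadjusted p of at most 0.05 these 5 fits had 2162, 2122, 1860, 2350 and 1738 genes, and DESeq2 called 624 over the 10 samples. Of the ATF4 genes, 3 were called by DESeq2 over the 12 libraries and over the 10 samples, and 0 in those 5 fits, with the length correction and with the replicate block. DDIT3 stayed between 0.36 and 0.58 on the log2 scale in all 28 alternatives and was called in 20 of them. Its FDR with the replicate block was 0.15 (log2 fold change 0.52). Replicate numbers do not pair the samples, since same-numbered libraries deviated together with r between -0.19 and 0.15 and 0 of 6 numbers matched best with themselves.

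TRIB3 had a log2 fold change of -0.019 with upper-quartile factors, -0.14 with voom and -0.12 with the replicate block, and -0.35 to 0.17 when a library was left out. PSPH had -0.016 over the 10 samples with edgeR and -0.020 with DESeq2, -0.047 with 1 library of each pair, -0.033 with the length correction over the 10 samples and -0.006 with the filter on CPM over them, and -0.11 to 0.32 when a library was left out. Leaving out 1 library gave 26 to 565 genes called, with 26 without CON replicate 1 and 35 without CON replicate 4. It gave 0 to 1 ATF4 genes, 0 only without CON replicate 1. PSPH and CHAC1 had few reads, 13 to 49 and 3 to 7 per library, and the part of depth in their spread was not tested.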

Other observations

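Genes whose log2 CPM followed each of the 9 tested genes most closely over the 10 samples are given as a description, from 13211 other genes. The samples share their diets, depth and libraries, and among so many genes high values of r arise in 10 samples without any relation. ATF4 was followed most closely by CACUL1 (r = 0.947), PEX11G (0.941) and SNRPF (0.925), and ATF5 by IQCG (0.900), C29H11orf86 (0.886) and PLLP (0.884). DDIT3 was followed by DOK2 (0.948), PRR22 (0.945) and ANAPC11 (0.937), and DDIT4 by CUX1 (0.964), MORC4 (0.927) and GLTPD2 (0.925). The nearest genes to ASNS were REXO2 (0.956), XBP1 (0.951) and a gene without a symbol (0.933), and those to TRIB3 were ABLIM3 (0.946), SDHD (0.923) and AFG3L2 (0.915). PHGDH was nearest to NELFCD (0.937), NIPSNAP1 (0.923) and FAIM (0.916), PSAT1 to DDAH1 (0.953), NPR1 (0.945) and LOC518623 (0.943), and PSPH to TMEM254 (0.898), LOC101909028 (0.896) and MTUS1 (0.895). No serine synthesis gene was among the 3 nearest of another, and XBP1, nearest but one to ASNS, was itself in a list examined here.

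FGF21, a liver hormone gene that ATF4 can induce, was too low to be tested but uneven between calves. It had 0.948, 2.89, 0.228, 0.520 and 0.414 CPM in the CON samples and 0.0476, 3.60, 2.30, 1.01 and 1.03 CPM in the MET samples. The samples above 2 CPM were CON replicate 2, MET replicate 2 and MET replicate 4, and the diets overlapped.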
